A study of Danio rerio with 42 samples.

Results

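The genes described here are the thyroid hormone receptors, the deiodinases and their closest partners in the zebrafish: thraa, thrab and thrb (receptors), dio1, dio2 and dio3b (deiodinases), ttr (transthyretin) and tshba (the thyrotropin beta subunit). They were chosen by symbol from the gene column of each table. 7 of the 8 symbols were found among 25935 genes of the larval table and among 25680 of the liver tables; dio3b was found in neither table and was not analysed here. No measured value enters that rule, but it was written with earlier results of these data known, so the tests below are not independent evidence about this choice of genes. In the GRCz10 build, thraa (ENSDARG00000000151) lies on chromosome 3 from 34558514 to 34624097, thrab (ENSDARG00000052654) on chromosome 12 from 21677911 to 21918131 and thrb (ENSDARG00000021163) on chromosome 19 from 18056106 to 18199625. dio1 (ENSDARG00000042112) lies on chromosome 8 from 18003858 to 18006377 and dio2 (ENSDARG00000094857) on chromosome 17 from 16865484 to 16868819. ttr (ENSDARG00000037191) lies on chromosome 20 from 6098575 to 6114084, and tshba (ENSDARG00000033726) on chromosome 6 from 49082488 to 49086672. Every value is a sum over the whole gene, with no split into exons or transcripts.

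The thyroid follicle releases mainly thyroxine, a prohormone, under the drive of thyrotropin from the pituitary. Deiodinases remove iodine in target tissues: dio2 makes the active hormone, dio3 enzymes inactivate it, and dio1, best known from mammalian liver, can do both. The active hormone binds nuclear receptors of the alpha and beta kinds, and in fish larvae it drives the passage from larva to juvenile, while in the liver it acts on lipid and cholesterol handling. Transthyretin, made mainly by hepatocytes, carries the hormone in blood.

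The study asked how embryonic alcohol exposure (EAE) and a later high-fat, high-cholesterol (HFHC) diet act together in wild-type fish of the AB strain. Embryos were kept in fish water with 0%, 0.5% or 1% ethanol (EtOH) from 12 hpf (hours post fertilisation) to 5 dpf (days post fertilisation) and then without it. Larvae received a normal diet (ND, hatched brine shrimp) or the same with an egg powder supplement (HFHC) from 6 dpf, and 15 whole siblings were pooled for each sample at 13 dpf. The larval groups are control ND (0% EtOH), EAE ND (1% EtOH), control HFHC and EAE HFHC, with 3 pools each. Adults received diets of another make-up from 65 dpf for 8 weeks. Adult ND was a set daily ration of a commercial feed (Gemma Micro), and adult HFHC diet was a larger ration of that feed with egg powder. Whole livers were dissected from single fish. The 6 liver groups are control, 0.5% EtOH and 1% EtOH on ND or on HFHC diet, with 5 livers each; the control HFHC livers are numbered 1 to 4 and 6 in the labels. Every fish was of the same strain, and a pool or liver is the unit of replication. The labels give no sex, but the paper's discussion refers to the exposed fish with liver transcript changes as males. The paper describes the liver cohorts as family-matched. Nothing in the labels says that pools came from separate clutches, so the p-values measure the spread between these samples.

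Larval libraries held 18582927 to 39115243 counts in genes (median 20644885) and liver libraries 8131371 to 12963071 (median 11299844). The biological coefficient of variation fitted by edgeR was 7.35% over the 12 pools and 43.3% over the 30 livers. Hepatocyte markers summed to 53946 to 241376 CPM (counts scaled to 1000000 per library) in the livers, lowest in control ND replicate 3. Intestinal epithelium markers, which should be near absent from liver, summed to over 1000 CPM in 7 livers and to 5.09 to 523 CPM in the other 23. The 7 livers are control ND replicates 1, 2 and 3 (4079, 6518 and 20305 CPM), 1% EtOH ND replicates 3, 4 and 5 (4760, 1609 and 7366 CPM) and 0.5% EtOH HFHC replicate 2 (5307 CPM). Exocrine pancreas markers summed to 2514 to 27293 CPM in control ND livers and to 2086 to 23695 CPM in 1% EtOH ND livers, against 258 to 1061 CPM in 1% EtOH HFHC livers. Values that lost their call or moved by over 1.5 times without these 7 livers are given both ways. Fits without them lack 3 of the 5 livers in control ND and 3 of the 5 in 1% EtOH ND. A call lost there cannot be told apart from a loss of power through fewer livers. The part of the intestinal and pancreatic markers in these values was not tested.

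In whole larvae the carrier and the first deiodinase were the most abundant transcripts per length by their medians, and the pituitary hormone was barely detected. The authors' TPM values, scaled to one total per library, correct for gene length, so genes can be compared on this scale. Over the 12 pools the median TPM was 30.2 for ttr (9.65 to 56.3), 29.8 for dio1 (21.9 to 38.7), 11.6 for thrab (9.03 to 16.03), 7.49 for thraa (6.33 to 7.80), 7.48 for dio2 (5.93 to 9.90), 5.86 for thrb (5.14 to 6.96) and 0.525 for tshba (0.126 to 1.27). The ranges of ttr and dio1 overlapped, and so did those of ttr and thrab: in EAE ND replicate 3 ttr stood at 9.65 TPM and thrab at 16.03 TPM. In every pool dio1 lay above thrab and thrab above thraa, and thraa, dio2 and thrb overlapped their neighbours. ttr spanned the widest range of the 6 genes that passed the low-count filter, and thraa and thrb the narrowest.

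tshba, made by the thyrotropes of the pituitary, gave 66 counts in all 12 larval pools together and did not pass the filter. The control ND pools held 5, 4 and 8 counts, the EAE ND pools 10, 4 and 1, the control HFHC pools 4, 1 and 6, and the EAE HFHC pools 5, 11 and 7. Scaled for depth this was 0.205 to 0.228 CPM, 0.0520 to 0.512 CPM, 0.0533 to 0.265 CPM and 0.250 to 0.512 CPM. Only the control ND and EAE HFHC pools did not overlap, and the difference was not tested.

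None of the 3 receptors was called between larval groups. Normalised read counts are given as CPM scaled by edgeR's TMM factors, and a gene was called where its Benjamini-Hochberg adjusted p in edgeR was below 0.05 over all 19657 larval genes tested. thraa, a receptor of the alpha kind, had 10.4, 10.9 and 10.4 CPM in control ND pools and 10.5, 9.39 and 8.53 CPM in EAE ND pools. On HFHC diet it had 9.91, 10.1 and 10.1 CPM in control pools and 10.2, 8.33 and 9.28 CPM in EAE pools. Its control HFHC and EAE HFHC pools all lay just below its control ND pools, and its other groups overlapped. The log2 fold changes of thraa ran from -0.15 to 0.04 over the 5 larval comparisons, and their 95% intervals from -0.36 to 0.33.

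thrab, the other receptor of the alpha kind, had 10.7, 8.67 and 9.59 CPM in control ND pools and 9.84, 11.3 and 14.4 CPM in EAE ND pools. The groups overlapped, with EAE ND replicate 3 the highest of all 12 pools. The log2 fold change was 0.29 (SE 0.13, 95% interval 0.01 to 0.57, adjusted p = 0.289 by edgeR), which is not a call. On HFHC diet thrab had 12.7, 11.9 and 9.998 CPM in control pools and 11.6, 10.8 and 10.03 CPM in EAE pools, and the effect of EtOH on HFHC minus that on ND was -0.38 (95% interval -0.77 to 0.01, adjusted p = 0.379 by edgeR). thrb, the beta receptor, kept within 16.4 to 21.3 CPM in all pools. Its log2 fold changes ran from -0.11 to 0.07, with 95% intervals from -0.36 to 0.25. Sequence shared by the paralogs thraa and thrab may take reads from either copy, and how such reads were counted is not given in the sources used here.

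**Figure D1:**
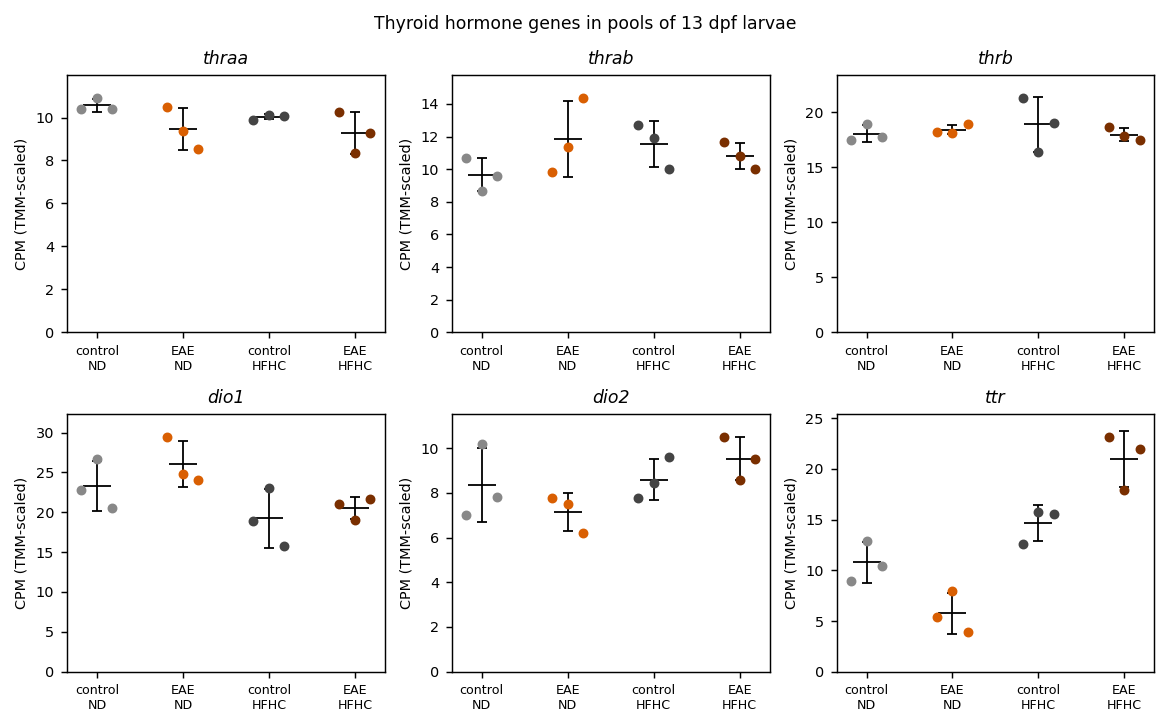
Normalised read counts (CPM scaled by TMM, linear axis from 0) of the 6 tested genes in the 12 pools of 13 dpf larvae. Each point is 1 pool, the long dash is the group mean and the bar the SD (n = 3). thraa lies between 8.33 and 10.9 CPM and thrb between 16.4 and 21.3 CPM, whereas ttr runs from 3.90 CPM in EAE ND to 23.1 CPM in EAE HFHC.

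The deiodinases moved little in larvae, and neither was called. dio1 was lower on the HFHC diet in both exposure groups by its point estimate. In EAE larvae it had 29.4, 24.8 and 24.0 CPM on ND and 21.0, 19.0 and 21.7 CPM on HFHC diet. All 3 HFHC pools lay below all 3 ND pools, with a log2 fold change of -0.34 (SE 0.12, 95% interval -0.61 to -0.08, adjusted p = 0.0859 by edgeR). In control larvae dio1 had 22.8, 26.7 and 20.5 CPM on ND and 18.9, 23.1 and 15.7 CPM on HFHC diet. These groups overlapped, and the log2 fold change was -0.27 (SE 0.12, 95% interval -0.54 to -0.01, adjusted p = 0.144 by edgeR). The dio1 difference in control larvae was called without control HFHC replicate 2 (-0.42, adjusted p = 0.0297), and that in EAE larvae when only those 2 groups were fitted (adjusted p = 0.0285).

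dio2, the activating deiodinase, had 7.79, 7.50 and 6.19 CPM in EAE ND pools and 10.5, 8.56 and 9.53 CPM in EAE HFHC pools. The EAE groups did not overlap. The log2 fold change was 0.41 (SE 0.14, 95% interval 0.11 to 0.71, adjusted p = 0.0705 by edgeR), and it was called when only those 2 groups were fitted (adjusted p = 0.0460). In control larvae dio2 had 7.01, 10.2 and 7.83 CPM on ND and 7.76, 8.43 and 9.60 CPM on HFHC diet, which overlapped. EtOH on ND gave the lowest value of dio2 in larvae, -0.20 (95% interval -0.50 to 0.09, adjusted p = 0.524 by edgeR).

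ttr was the one gene of the 6 with calls between larval groups. It was lower in EAE larvae than in controls on ND, and higher in EAE HFHC larvae than in EAE ND larvae. The control ND pools held 8.97, 12.9 and 10.5 CPM (10.8 ± 1.999, SD, n = 3), and the EAE ND pools 5.43, 7.95 and 3.90 CPM (5.76 ± 2.04, SD, n = 3). The control HFHC pools held 12.6, 15.8 and 15.6 CPM (14.6 ± 1.79, SD, n = 3), and the EAE HFHC pools 23.1, 17.9 and 22.0 CPM (21.0 ± 2.75, SD, n = 3). The EAE ND pools were the 3 lowest of the 12 and the EAE HFHC pools the 3 highest, with the control pools between them and overlapping each other.

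On ND the EtOH effect on ttr was -0.88 on the log2 scale (SE 0.20, 95% interval -1.29 to -0.47, adjusted p = 0.0421 by edgeR, lower in 3 of 3 pools than any control pool), or 0.544 of the control level. This was 1 of 6 thyroid genes called, where 1.31% of all genes were called in the same comparison. The call was lost without control ND replicate 2 (adjusted p = 0.191), control ND replicate 3 (0.0623), EAE ND replicate 1 (0.112) or EAE ND replicate 3 (0.160), and when only the 2 groups were fitted (0.0861), while the value stayed between -1.20 and -0.67 with 1 pool left out. On HFHC diet the EtOH effect had the opposite sign, 0.52 (SE 0.17, 95% interval 0.17 to 0.88, adjusted p = 0.304 by edgeR), with the EAE pools above the control pools in 3 of 3 and without a call. By edgeR 0 of 6 thyroid genes were called there, beside 0.234% of all genes, and DESeq2 called 0 of the 6. An unadjusted p below 0.05 was held by 1 of the 6 and by 8.31% of all genes.

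The diet raised ttr in EAE larvae 3.60-fold, a log2 fold change of 1.85 (SE 0.19, 95% interval 1.45 to 2.25, adjusted p = 1.71e-05 by edgeR, higher in 3 of 3 pools). It was the sole call among the 6 thyroid genes, where 12.3% of all genes were called. This call held under all 11 alternatives run, with adjusted p up to 0.000153. In control larvae the diet gave 0.45 (SE 0.17, 95% interval 0.08 to 0.82, adjusted p = 0.0861 by edgeR). By edgeR 0 of 6 thyroid genes were called in control larvae, where 17.1% of all genes were, and DESeq2 called 0 of the 6. An unadjusted p below 0.05 was held by 2 of the 6 and by 32.4% of all genes. There ttr was called when only the 2 groups were fitted (adjusted p = 0.0474 by edgeR).

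The EtOH effect on ttr differed between the diets. The effect on HFHC minus that on ND was 1.40 on the log2 scale (SE 0.26, 95% interval 0.86 to 1.94, adjusted p = 0.0335 by edgeR). It was the 1 call among 6 thyroid genes, where 0.254% of all genes were called. The value kept its sign in all 12 fits with 1 pool left out (1.19 to 1.71), and the call was lost in 6 of them: without control ND replicate 2 (adjusted p = 0.0831), EAE ND replicate 1 (0.0766), EAE ND replicate 3 (0.0564), control HFHC replicate 1 (0.0746), EAE HFHC replicate 1 (0.0980) or EAE HFHC replicate 3 (0.101). All these larval comparisons share pools, so they are not separate pieces of evidence.

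In whole animals fewer cells of a type and less RNA per cell cannot be told apart, so the markers of the cells that make ttr are given beside it. The 10 hepatocyte markers, none of them at 0, summed to 12965 to 16244 CPM in control ND pools, 13767 to 14345 CPM in EAE ND, 15172 to 16339 CPM in control HFHC and 14147 to 16019 CPM in EAE HFHC. These ranges overlapped between EAE ND and EAE HFHC only through EAE ND replicate 1 (14345 CPM) and EAE HFHC replicate 3 (14147 CPM), while ttr did not overlap. Per 1000 CPM of these markers ttr stood at 0.692 to 0.796 CPM in control ND, 0.283 to 0.577 CPM in EAE ND, 0.829 to 1.01 CPM in control HFHC and 1.21 to 1.56 CPM in EAE HFHC, so the 4 groups did not overlap. In the diet comparison of EAE larvae 2 of the 10 hepatocyte markers were called higher, fabp10a by 0.53 and fgg by 0.27 on the log2 scale. In EtOH on ND 0 of 10 were called by edgeR, but 9 of the 10 were lower (median -0.16 on the log2 scale), and fabp10a, fgb, fga and fgg had unadjusted p-values from edgeR of 0.0304 to 0.0422. The marker not lower was apobb.1 (0.05), which weighs most in the sum, with an EAE ND mean of 6480 CPM against 489 CPM for fabp10a. For the EtOH effect on HFHC minus that on ND, fabp10a gave 0.41 (adjusted p = 0.127 by edgeR). The median of the 10 markers there was 0.03, and edgeR called 0. In EtOH on HFHC diet fabp10a gave 0.23 (adjusted p = 0.428 by edgeR), with all EAE pools above all control pools. The median of the 10 markers in that comparison was -0.12, and edgeR called 0.

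**Figure D2:**
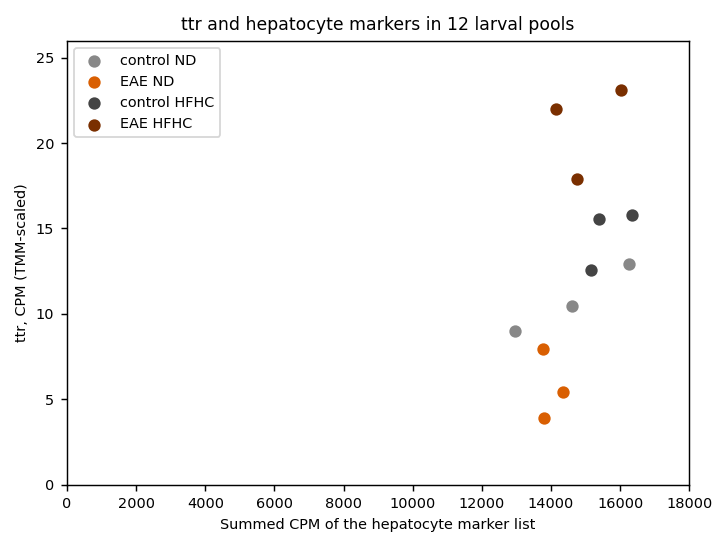
ttr (CPM scaled by TMM, vertical axis) against the summed CPM of 10 hepatocyte markers (horizontal axis) in the 12 larval pools, both axes linear from 0. Each point is 1 pool, coloured by group. The marker sums lie between 12965 and 16339 CPM in all groups, while ttr runs from 3.90 to 23.1 CPM.

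Markers of other cell types also differed between the groups, and those of erythrocytes were lowest and highest in the same groups as ttr. The 8 erythrocyte markers summed to 363 to 442 CPM in EAE ND, 486 to 542 CPM in control ND, 504 to 604 CPM in control HFHC and 618 to 685 CPM in EAE HFHC. Of the 6 erythrocyte markers tested, 6 were called higher with the diet in EAE larvae and 2 lower with EtOH on ND. The 10 pituitary markers summed to 4.84 to 5.58 CPM in EAE ND, 7.77 to 20.3 CPM in control ND, 7.36 to 10.8 CPM in control HFHC and 10.4 to 14.3 CPM in EAE HFHC; of 4 tested, the growth hormone gene gh1 was called at -1.36 (adjusted p = 0.0257 by edgeR) with EtOH on ND and at 1.49 (adjusted p = 0.00139 by edgeR) with the diet in EAE larvae. For gh1 the EtOH effect on HFHC minus that on ND was also called, at 1.85 (adjusted p = 0.0413 by edgeR), with the same sign as for ttr. The 10 neuron markers summed to 931 to 996 CPM in EAE ND and to 792 to 837 CPM in control ND. The part of these markers in the ttr result was not tested.

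In adult livers 5 of the 7 genes passed the filter, and dio2 was the one called. thrab gave 0 to 11 counts in a liver (113 in all 30, with 3 livers at 0) and was not tested. tshba gave 5 counts in 3 of the 30 livers, 4 of them in 1% EtOH ND and 1 in 0.5% EtOH HFHC. In the other 4 liver groups tshba was at 0 in every liver, and 3 counts over a group would have been 0.0534 to 0.0626 CPM, a limit that covers counting error only. The pituitary markers reached at most 2.02 CPM in any liver. The liver tables hold no length-corrected values, so levels are compared between livers and not between genes, and the larval and liver tables were normalised separately. Set side by side without a test, dio2 stood at 6.19 to 10.5 CPM in larval pools and at 275 to 2062 CPM in livers, and ttr at 3.90 to 23.1 CPM and 55.5 to 404 CPM.

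**Figure D3:**
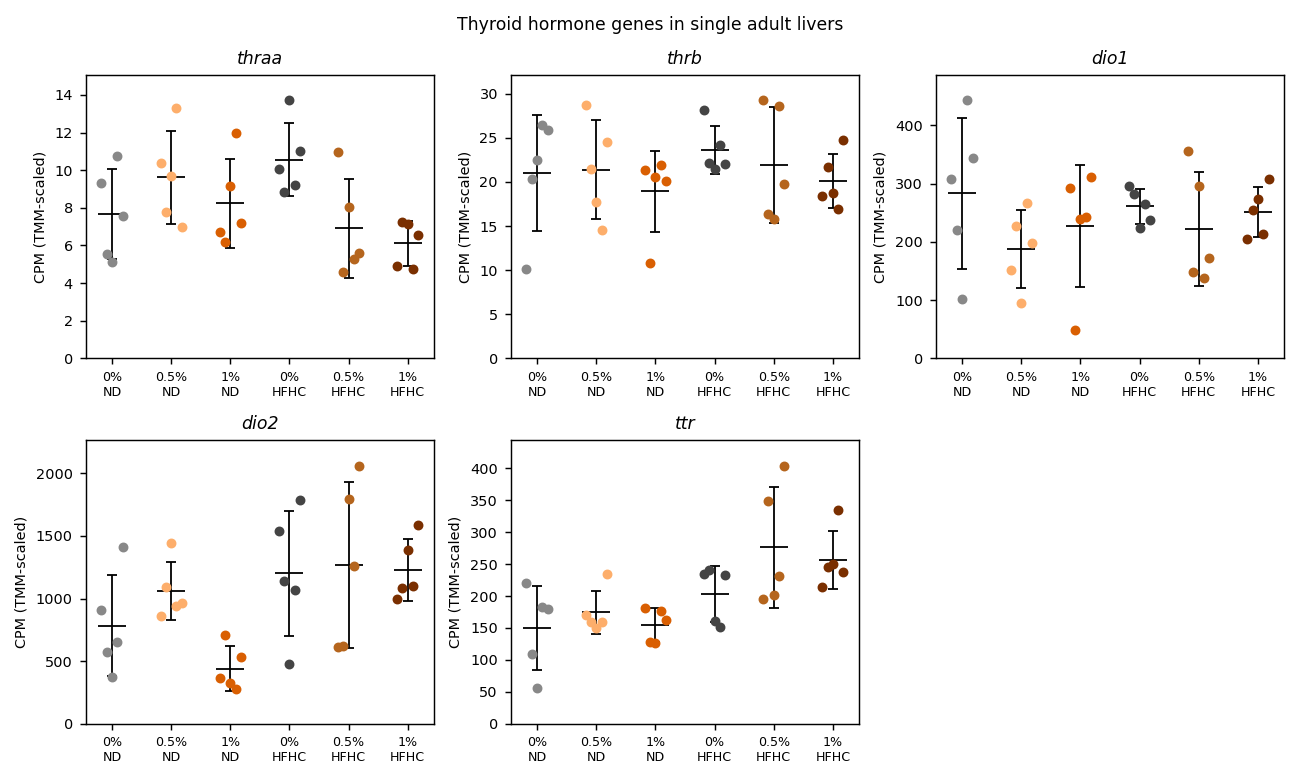
Normalised read counts (CPM scaled by TMM, linear axis from 0) of the 5 tested genes in the 30 single livers, by EtOH dose and diet. Each point is 1 liver, the long dash is the group mean and the bar the SD (n = 5). dio2 in 1% EtOH livers runs from 275 to 706 CPM on ND and from 992 to 1585 CPM on HFHC diet, and the groups of thrb overlap throughout.

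Of the receptors in liver, thraa was lower in exposed fish on HFHC diet by its point estimates, and thrb was level. thraa had 10.1, 8.82, 13.7, 9.21 and 11.03 CPM in control HFHC livers (10.6 ± 1.95, SD, n = 5). In 1% EtOH HFHC livers it had 4.92, 7.24, 7.13, 4.76 and 6.55 CPM (6.12 ± 1.20, SD, n = 5), and in 0.5% EtOH HFHC livers 10.99, 4.57, 8.06, 5.26 and 5.62 CPM (6.90 ± 2.64, SD, n = 5). All 5 livers of the 1% group lay below all 5 controls, whereas replicate 1 of the 0.5% group lay within them. At 1% EtOH this was a log2 fold change of -0.78 (SE 0.17, 95% interval -1.17 to -0.40, adjusted p = 0.289 by edgeR). By edgeR 0 of 5 thyroid genes were called in that comparison, beside 0.00813% of all genes. An unadjusted p below 0.05 was held by 1 of the 5 and by 9.65% of all genes. DESeq2 called thraa there (-0.79, adjusted p = 0.0254), when it called 89 genes in all.

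At 0.5% EtOH on HFHC diet thraa changed by a log2 value of -0.61 (95% interval -1.14 to -0.08, adjusted p = 0.380 by edgeR), against the same control livers. There edgeR called 0 of 5 thyroid genes and 0% of all genes, and DESeq2 called 0 of the 5 and 138 genes in all. An unadjusted p below 0.05 was held by 1 of the 5 and by 11.4% of all genes (1403). On ND thraa had 9.32, 5.54, 5.15, 10.8 and 7.56 CPM in control livers (7.66 ± 2.41, SD, n = 5). The 0.5% EtOH ND livers had 10.4, 7.76, 9.67, 13.3 and 6.96 CPM and the 1% EtOH ND livers 6.69, 6.21, 9.14, 12.0 and 7.19 CPM, both overlapping the controls. The effect on HFHC minus that on ND was -0.90 for 1% EtOH (95% interval -1.61 to -0.18, adjusted p = 0.854 by edgeR) and -0.95 for 0.5% EtOH (95% interval -1.66 to -0.24, adjusted p = 0.0954 by edgeR). The second was called without control ND replicate 4 (adjusted p = 0.0395) or 0.5% EtOH HFHC replicate 1 (0.0267), and without the livers of high intestinal marker level these differences were -0.28 and -0.56. The diet in control livers gave the highest value of thraa, 0.47 (95% interval -0.03 to 0.98, adjusted p = 0.234 by edgeR), and 0.21 without those livers.

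thrb ran from 10.2 CPM (control ND replicate 1) to 29.2 CPM over the 30 livers. Its log2 fold changes ran from -0.23 to 0.16 over the 9 liver comparisons, and none was called by edgeR; the highest, with the diet in controls, was -0.15 without the 7 livers of high intestinal marker level.

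dio2 rose with the HFHC diet in livers of fish exposed to 1% EtOH. The 1% EtOH ND livers held 365, 706, 326, 275 and 532 CPM (441 ± 177, SD, n = 5), and the 1% EtOH HFHC livers 992, 1085, 1385, 1098 and 1585 CPM (1229 ± 247, SD, n = 5). All 5 livers on HFHC diet lay above all 5 on ND. The log2 fold change was 1.48 (SE 0.37, 95% interval 0.72 to 2.24, adjusted p = 0.0497 by edgeR), or 2.79-fold. It was the 1 call among 5 thyroid genes, beside 0.879% of all genes. The call sits at the threshold: of the 10 fits with 1 liver left out it held in 1, without 1% EtOH ND replicate 2, and in the other 9 the value was 1.35 to 1.56 with adjusted p of 0.0607 to 0.137. It held with DESeq2 (adjusted p = 0.00384) and without the livers of the other exposures, and was lost with RLE scaling (0.0513), with no filter on low counts (0.0517) and without the 7 livers of high intestinal marker level (1.21, adjusted p = 0.241), 3 of which are 1% EtOH ND livers. That last loss cannot be told apart from the effect of having fewer livers.

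The other 4 liver groups had overlapping dio2 levels. Control ND livers held 905, 575, 373, 650 and 1415 CPM (784 ± 401, SD, n = 5), and control HFHC livers 1538, 1141, 480, 1068 and 1786 CPM (1202 ± 499, SD, n = 5). The 0.5% EtOH ND livers held 858, 1093, 1443, 942 and 962 CPM (1060 ± 230, SD, n = 5), and the 0.5% EtOH HFHC livers 611, 623, 1795, 1259 and 2062 CPM (1270 ± 663, SD, n = 5). Both pairs of diets overlapped. The diet gave 0.62 in control livers (95% interval -0.13 to 1.36, adjusted p = 0.299 by edgeR) and 0.26 in 0.5% EtOH livers (95% interval -0.48 to 1.00, adjusted p = 0.810 by edgeR), or 0.22 and 0.44 without the 7 livers. For 1% EtOH on ND dio2 gave -0.84 (95% interval -1.70 to 0.03, adjusted p = 0.928 by edgeR), with overlapping groups. The difference between the diet effect with 1% EtOH and that in controls is the same term as the effect of 1% EtOH on HFHC minus that on ND; it was 0.86 (95% interval -0.19 to 1.91, adjusted p = 0.9005 by edgeR), so a difference from the controls is not shown.

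dio1 overlapped between all liver groups. It had 307, 221, 101, 443 and 345 CPM in control ND livers and 293, 49.3, 240, 244 and 312 CPM in 1% EtOH ND livers, and 152, 228, 94.5, 268 and 197 CPM in 0.5% EtOH ND livers. The HFHC livers lay between 138 and 356 CPM, inside the range of the ND livers. Its log2 fold changes ran from -0.61 (0.5% EtOH on ND, 95% interval -1.44 to 0.21) to 0.36 (the difference of 0.5% EtOH effects between diets), and none was called by edgeR; without the 7 livers these were -1.07 and 0.96.

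ttr was higher on HFHC diet at every exposure by its point estimates, and was not called. The 1% EtOH ND livers held 182, 128, 126, 176 and 162 CPM, and the 1% EtOH HFHC livers 215, 245, 251, 334 and 238 CPM. All 5 livers on HFHC diet lay above all 5 on ND, with a log2 fold change of 0.73 (SE 0.26, 95% interval 0.19 to 1.27, adjusted p = 0.162 by edgeR). The 0.5% EtOH ND livers held 170, 159, 150, 159 and 234 CPM and the 0.5% EtOH HFHC livers 196, 349, 201, 232 and 404 CPM, with overlap through 0.5% EtOH ND replicate 5. There the log2 fold change was 0.66 (SE 0.26, 95% interval 0.12 to 1.20, adjusted p = 0.247 by edgeR). Control livers held 220, 109, 55.5, 183 and 180 CPM on ND and 234, 241, 160, 151 and 233 CPM on HFHC diet, which overlapped, with a log2 fold change of 0.45 (95% interval -0.09 to 0.99, adjusted p = 0.298 by edgeR), or 0.17 without the 7 livers. The diet effect exceeded that in controls by 0.28 with 1% EtOH (adjusted p = 0.936 by edgeR) and by 0.22 with 0.5% EtOH (adjusted p = 0.789 by edgeR), or by 0.57 and 0.40 without the 7 livers, so a difference between exposures is not shown. For 1% EtOH on ND, the comparison in which larval ttr fell, liver ttr gave 0.04 (95% interval -0.70 to 0.77, adjusted p = 0.991 by edgeR), and -0.23 without the 7 livers. Liver ttr was also set against 9 hepatocyte markers. Per 1000 CPM of their sum it stood at 1.01 to 1.18 CPM (control ND) and 0.789 to 1.29 CPM (control HFHC). For 1% EtOH this was 0.955 to 1.40 CPM on ND and 1.35 to 1.90 CPM on HFHC diet. For 0.5% EtOH it was 0.913 to 1.67 CPM and 0.958 to 1.96 CPM. The diets overlapped at every exposure, and the control median was lower on HFHC diet (0.969 against 1.11 CPM). These ratios were not tested.

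In the remaining liver comparisons edgeR called 0 of the 5 thyroid genes, and DESeq2 called 0. In 1% EtOH on ND 0 had an unadjusted p below 0.05, where 4.4% of all genes had one and 0.0154% were called. In 0.5% EtOH on ND 0 had one, where 13.7% of all genes (1676) had one. There edgeR called 0% of all genes and DESeq2 called 1041. With the diet in control livers 0 had one, where 25.5% of all genes had one and 11.1% were called. With the diet in 0.5% EtOH livers 1 had one, where 13.7% of all genes had one and 0.0703% were called. For the difference of EtOH effects between diets 1 had one at 1% EtOH, where 5.38% of all genes (765) had one. There edgeR called 0% of all genes and DESeq2 called 1. At 0.5% EtOH 1 had one, where 21.8% of all genes had one and 7.91% were called.

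**Figure D4:**
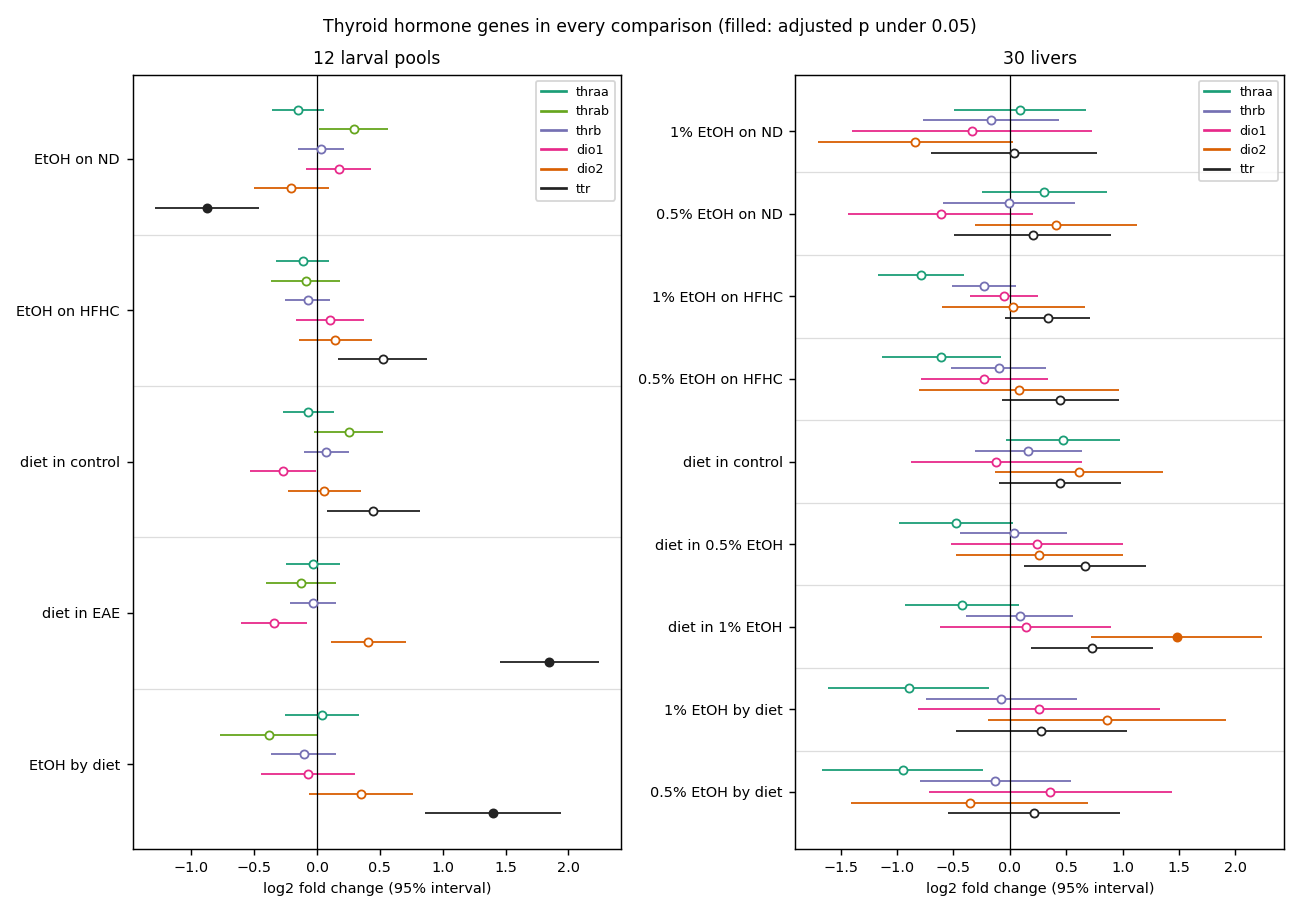
Log2 fold changes (horizontal axis) with 95% intervals from edgeR of the 6 genes tested in larvae and the 5 tested in livers, in every comparison (EtOH minus control, HFHC minus ND, and the EtOH effect on HFHC minus that on ND). Filled points have an adjusted p below 0.05: ttr at -0.88, 1.85 and 1.40 in larvae and dio2 at 1.48 in livers.

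Other genes were taken from lists of 52 genes, called pathway genes here, of which 39 were tested in larvae and 23 in livers. The lists hold genes of synthesis, control, transport and inactivation, receptor partners, and genes known to respond to the hormone. Whether the hormone had a part in any of their changes was not tested. With the diet 6 of the 39 were called higher and 4 lower in control larvae (median log2 fold change 0.07 over the 39, 0.01 over all genes), where 17.1% of all genes were called. In EAE larvae 6 were called higher and 3 lower (median 0.12, against -0.0012 over all genes), where 12.3% of all genes were called. With EtOH on ND 1 was called, higher, beside 1.31% of all genes, and with EtOH on HFHC diet edgeR called 0, beside 0.234%. Most calls fell among the 10 tested genes known to respond to the hormone, of which 4 were called higher and 2 lower with the diet in controls, and 5 and 2 in EAE larvae. Of 13 receptor partners and coregulators 2 were called higher and 1 lower in control larvae, and 1 and 1 in EAE larvae. Of the 6 synthesis genes tested 1 was called lower in control larvae, and of the 4 genes of pituitary control and the 6 of transport and inactivation edgeR called 0 in any larval comparison.

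klf9, a transcription factor gene induced by the hormone and also by glucocorticoids, had the largest change of these genes in control larvae. It held 25.6, 22.6 and 21.6 CPM in control ND pools and 53.0, 57.4 and 58.0 CPM in control HFHC pools, 31.9, 24.8 and 30.2 CPM in EAE ND pools and 45.3, 48.2 and 45.2 CPM in EAE HFHC pools. All HFHC pools lay above all ND pools, with log2 fold changes of 1.28 in controls (adjusted p = 1.59e-07 by edgeR) and 0.68 in EAE larvae (adjusted p = 0.000109 by edgeR). The difference between these effects was not called by edgeR. cpt1ab, for the enzyme that admits fatty acids into mitochondria, rose by 0.57 (adjusted p = 4.7e-06 by edgeR) in controls and by 0.76 (adjusted p = 1.22e-06 by edgeR) in EAE larvae. ldlra, for the low-density lipoprotein receptor, rose by 0.66 (adjusted p = 0.00159 by edgeR) and 0.50 (adjusted p = 0.0128 by edgeR). opn1lw2, a red cone opsin, fell by 0.80 in EAE larvae (adjusted p = 0.000943 by edgeR), and cpt1aa, the paralog of cpt1ab, rose by 0.26 there (adjusted p = 0.0138 by edgeR). With the diet mean opn1lw2 went from 185 to 106 CPM in EAE pools and from 142 to 101 CPM in control pools. Mean cpt1aa went from 42.1 to 50.3 CPM in EAE pools and from 42.9 to 43.8 CPM in control pools. In EAE larvae the call of cpt1aa was lost without EAE ND replicate 1 (adjusted p = 0.0599) or 3 (0.0522) or EAE HFHC replicate 1 (0.0557) or 2 (0.0589), and that of ldlra without EAE ND replicate 2 (0.0742) or 3 (0.0521).

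pck1, for the enzyme that commits carbon to gluconeogenesis, was the pathway gene called with EtOH on ND. It was 0.41 higher with EtOH on ND (adjusted p = 0.0147 by edgeR; 0.0715 without control ND replicate 2 and 0.0627 without EAE ND replicate 3) and 0.42 higher with the diet in control larvae (adjusted p = 0.000729 by edgeR). Its EtOH effect on HFHC minus that on ND was -0.61 (adjusted p = 0.0145 by edgeR), a difference between diets of the sign opposite to that of ttr. foxe1, a transcription factor gene of the thyroid and pharynx, held 9.15, 8.45 and 8.03 CPM in control ND pools and 3.64, 4.59 and 3.27 CPM in control HFHC pools, a log2 fold change of -1.16 (adjusted p = 0.000742 by edgeR). Its EAE ND pools held 4.51, 8.36 and 8.43 CPM and its EAE HFHC pools 5.69, 6.88 and 6.57 CPM, which overlapped. In the difference of EtOH effects between diets pck1 was the 1 call among the 39 pathway genes, beside 0.254% of all genes. A dependence of the diet effect on EtOH is thus not shown for foxe1 or klf9.

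**Figure D5:**
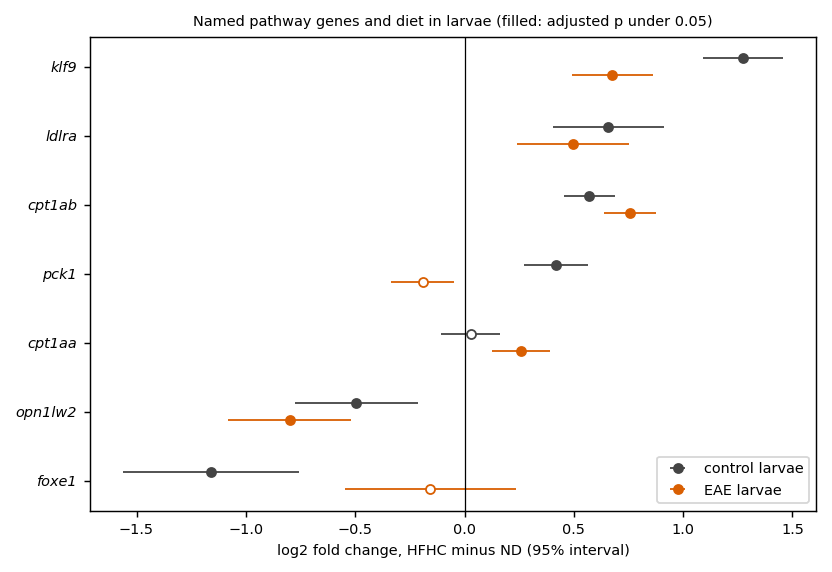
Log2 fold changes with the HFHC diet (horizontal axis, 95% intervals from edgeR) of 7 named pathway genes in control and EAE larvae. Filled points have an adjusted p below 0.05: klf9 stands at 1.28 in controls and 0.68 in EAE larvae, and foxe1 at -1.16 in controls. For neither gene was the difference between control and EAE larvae in the diet effect called by edgeR.

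In livers the pathway calls fell in the diet comparison of control livers and in the difference of 0.5% EtOH effects between diets. Both use the control ND livers, which carried pancreatic markers, and replicates 1, 2 and 3 held over 1000 CPM of intestinal markers. The control ND livers also entered EtOH on ND at 1% and 0.5% and the difference at 1% EtOH. There edgeR called 0 of the 23 genes, beside 0.0154%, 0% and 0% of all genes. The part of these markers in the calls was not tested. Fits without the livers of high intestinal marker level keep fewer control ND livers, so a call lost there cannot be assigned to the markers. With the diet in control livers 2 of the 23 were called higher and 4 lower, where 11.1% of all genes were called. In the difference of 0.5% EtOH effects between diets 2 were called higher and 1 lower, beside 7.91% of all genes. thrsp, the hormone-responsive lipogenic gene known from mammalian liver as Spot 14, held 82.4 to 547 CPM in control ND livers and 0.120 to 3.68 CPM in control HFHC livers, a log2 fold change of -7.70 (adjusted p = 0.00589 by edgeR) that stayed a call under every alternative run. me1, for malic enzyme, held 20.5 to 115 CPM and 240 to 491 CPM, a change of 2.23 (adjusted p = 0.00593 by edgeR; 0.286 without the livers of high intestinal marker level). The transporter genes slc7a8a (-3.83, adjusted p = 0.0104 by edgeR) and slc16a10 (-1.28, adjusted p = 0.0117 by edgeR) were called lower; without those livers slc7a8a gave 0.028 (adjusted p = 0.991) and slc16a10 -0.94 (adjusted p = 0.495). cpt1aa was called at 0.75 (adjusted p = 0.0122 by edgeR, and 0.251 without those livers). In exposed livers edgeR called 0 of the 23 genes with the diet. There 0.0703% of all genes were called at 0.5% EtOH and 0.879% at 1% EtOH. At 1% EtOH the means of these named genes all moved the same way, thrsp from 163 to 18.4 CPM and me1 from 200 to 365 CPM. At 0.5% EtOH thrsp (464 to 202 CPM), me1 (90.5 to 202 CPM) and slc16a10 (70.5 to 39.3 CPM) did so. There slc7a8a (2.93 to 14.8 CPM) and cpt1aa (50.5 to 47.7 CPM) moved the other way.

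In the difference of 0.5% EtOH effects between diets thrsp gave 6.49 (adjusted p = 0.0302 by edgeR), which rested on 0.5% EtOH HFHC replicate 1 at 973 CPM, the other 4 livers of its group lying between 0.358 and 20.3 CPM. Without that liver it was 1.97 (adjusted p = 0.409). slc7a8a gave 6.16 (adjusted p = 0.00488 by edgeR), and 0.85 (adjusted p = 0.735) without the livers of high intestinal marker level. cpt1aa gave -0.83 (adjusted p = 0.0486 by edgeR), with adjusted p from 0.00968 to 0.114 when 1 liver was left out and 0.510 without those livers.

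The genes whose log2 CPM moved most like each thyroid gene are given as a description. The samples share groups, and the largest of many correlations is high by selection. Over the 12 larval pools ttr was most like itln1 (Pearson r 0.96), mrc1a (0.95) and cldnk (0.95). dio2 was most like gnai2a (0.94), gstt1b (0.93) and acaa1 (0.93), and dio1 like kcnmb2 and papss2b (0.91 each). For the receptors the nearest were lgals3a (0.91), scxa (0.88) and angptl7 (0.88) for thraa, slc6a5 (0.92), tjp1b (0.91) and plxna2 (0.88) for thrab, and sema6ba (0.88), atp6ap1la (0.87) and cpeb4a (0.86) for thrb. Over the 30 livers ttr was most like habp2 (0.90), serpinf2a (0.89) and shbg (0.87). dio2 was most like sec23b (0.83), ifrd2 (0.76) and otog (0.72), and dio1 like lhx8b (0.78), igfbp2a (0.76) and slc44a5b (0.75). thraa was most like fbp1b (0.78), eif3s10 (0.78) and cnot6l (0.77), and thrb like tet2 (0.73), ccar1 (0.72) and esyt2a (0.70). Between dio2 and ttr r was 0.83 over the 12 larval pools and 0.76 after the group means were removed, and 0.54 and 0.38 over the 30 livers. This pair had the largest r of all pairs of tested thyroid genes in each tissue, so it too is high by selection. The lowest r in larvae was -0.56, between thrab and dio2.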

How the data were processed

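Poly-A selected RNA was sequenced single-end. The authors aligned reads to GRCz10 with STAR and, per the labels, used HTSeq 0.6.0; they deposited raw counts per gene (larvae and livers) and TPM (larvae). In the liver files, 40 columns of size-factor-scaled counts and the authors' log2 fold changes and p-values, were not used. Libraries hold 8131371 to 39115243 counts; groups come from the labels. Counts were filtered (filterByExpr), scaled by TMM and tested in edgeR 4.0.16 (quasi-likelihood, Benjamini-Hochberg over all genes, R 4.3.3). Larval fits used 12 pools, EtOH comparisons the 10 livers of 1 table, diet and difference terms all 30 livers. Intervals are 95%. Alternatives were DESeq2 1.42.0, RLE scaling, no filter, other sets of samples, a block for replicate number and leaving each sample out. Besides the thyroid genes, list genes with an adjusted p under 0.05 were named, at most 5 per comparison by p, and the 3 genes most correlated with each (1 of these is not reported here). The genes and lists were chosen with earlier results of these data known. The test was also run on simulated data with the same spread for every gene. That spread was not the spread of these larvae or livers, so the check does not show how the test performs at theirs.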

Additional observations from a re-analysis of the deposited data

Results flagged for a closer look

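Of 30 sets of 5 livers looked at (5 genes in 6 groups), 3 held a liver far from the rest, where chance gives about 1 in 20. In 1% EtOH ND replicate 2, dio1 stood at 49.3 CPM with the nearest of its group at 240 CPM, and thrb at 10.8 CPM with the nearest at 20.1 CPM. In 0.5% EtOH ND replicate 5, ttr stood at 234 CPM with the nearest at 170 CPM.

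The EtOH effect differed between the diets, by a test of the difference in edgeR, for ttr in larvae (1.40 on the log2 scale, adjusted p = 0.0335) and for pck1 in larvae (-0.61, adjusted p = 0.0145). In livers at 0.5% EtOH it did so for slc7a8a (6.16, adjusted p = 0.00488), thrsp (6.49, adjusted p = 0.0302) and cpt1aa (-0.83, adjusted p = 0.0486). The ttr call was lost in some fits with 1 pool left out, and the cpt1aa call in some with 1 liver left out. The thrsp call was lost without 0.5% EtOH HFHC replicate 1. Without the livers of high intestinal marker level the slc7a8a and cpt1aa calls were lost, but fewer livers were then fitted.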

How the results depend on the processing

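Of 56 named values, 33 kept their sign and their side of the threshold under every alternative. Without the 7 livers of high intestinal marker level, an alternative chosen after seeing the data, 3 changed sign: thrb with the diet in control livers (-0.15), ttr with 1% EtOH on ND in livers (-0.23) and slc7a8a with the diet in control livers (0.028). With 1 sample left out, 3 crossed 0: thraa in the larval difference of EtOH effects (-0.037 to 0.12), thrb with the diet in control larvae (-0.023 to 0.16) and ttr with 1% EtOH on ND in livers (-0.17 to 0.26). The other 39 values of the thyroid genes were at most 0.48 in size; 20 changed sign under some alternative and 0 were called under any (lowest adjusted p 0.117). The cause of these changes was not tested.

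Counts of genes called moved by over 1.5 times as follows. DESeq2 called 557 genes for EtOH on ND, 131 for EtOH on HFHC and 263 for their difference in larvae, and in livers 40 (1% EtOH on ND), 1041 (0.5% on ND), 89 (1% on HFHC), 138 (0.5% on HFHC), 329 (diet in 0.5% EtOH), 672 (diet in 1% EtOH) and 1 (difference at 1%). With no filter the larval counts were 414, 100 and 193, and in livers 0 (1% on ND) and 3 (diet in 0.5% EtOH). With only the 2 groups compared they were 145 and 92 for EtOH in larvae, and 130 (diet in control) and 0 (diet in 0.5% EtOH) in livers. With all 30 livers they were 0 (1% on ND), 1132 (0.5% on ND) and 0 (1% on HFHC). Without the 7 livers they were 0 (1% on ND), 7 (0.5% on ND), 71 (diet in control), 305 (diet in 1% EtOH) and 0 (difference at 0.5%). With the replicate number as a block they were 22 for EtOH on HFHC in larvae, and in livers 0 (1% on ND), 561 (diet in control), 4 (diet in 0.5% EtOH), 1 (diet in 1% EtOH) and 255 (difference at 0.5%); dio2 with the diet in 1% EtOH then had an adjusted p of 0.0730. Samples of one number were not shown to be paired: the correlation of their deviations ran from -0.088 to 0.055 in larvae and from -0.557 to 0.572 in livers. With 1 sample left out the larval counts ran from 7 to 277 (EtOH on ND), 8 to 60 (EtOH on HFHC), 1868 to 3415 (diet in control), 1525 to 1850 (diet in EAE) and 15 to 386 (difference). In livers they ran from 0 to 3 (1% on ND), 0 to 272 (0.5% on ND), 0 to 5 (1% on HFHC), 0 to 1 (0.5% on HFHC), 338 to 2206 (diet in control), 0 to 49 (diet in 0.5% EtOH), 0 to 367 (diet in 1% EtOH) and 376 to 1606 (difference at 0.5%). The variation of 43.3% is common to all genes in the fit of 30 livers and is not the spread of each thyroid gene. The printed intervals were worked out from edgeR's log2 fold change and test statistic, for each value by itself. They are not adjusted for the number of genes tested, so some leave out 0 where the gene was not called. Low counts limit tshba and liver thrab.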
